A study of Homo sapiens with 6 samples.

Results

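The collagen chains of the interstitial fibres and of the basement membrane were followed in MCF-10A cells made to overexpress the methylated DNA binding protein MBD2. The chains are COL1A1, COL1A2, COL3A1, COL5A1 and COL5A2 of the fibrillar types, COL4A1 and COL4A2 of basement membrane type IV, and COL6A1, COL6A2 and COL6A3 of the microfibrillar type VI. They were chosen by gene symbol, as every probe set of the array whose annotation gives exactly 1 symbol from this list, which found all 10 genes, out of 19775 genes with such a probe set, and took 33 of the 54675 probe sets. The probe sets of a gene are numbered here from the brightest, by the mean over the 6 arrays. MCF-10A is an immortalized human breast epithelial line that is not transformed, here grown in mammary epithelial medium. Transcript levels of 3 MBD2 and 3 control samples were read on U133 Plus 2.0 arrays from Affymetrix. The labels give the treatment of the MBD2 group as MBD2 transfection. By the study's methods this group received a lentivirus that carries MBD2 and was packaged in HEK293 cells. The control group was not infected according to the labels, but was infected with an empty virus according to the study's methods. The labels also call the 3 arrays of a group technical replicates whereas the methods call them biological, so the p-values given here measure only the spread between these arrays. All values are log2 values, so that a difference of 1 is a doubling.

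Collagen chains are wound into triple helices inside the cell. Types I, III and V assemble into banded fibres of the stroma, with type V setting how fibres start and how thick they grow. Type IV forms the sheet-like network of the basement membrane on which breast epithelium rests, and its most widespread molecule holds 2 COL4A1 chains and 1 COL4A2 chain. Type VI forms beaded filaments at the border of basement membrane and stroma. MBD2 binds methylated CpG dinucleotides and is known mainly as a part of a repressor complex.

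The promoter sequence is shown for COL4A2, because COL4A1 and COL4A2 gave the largest differences among the collagen chains and share this stretch of DNA, and for COL6A3, which also had separate groups and is poor in CpG. RefSeq windows of 300 bases, running from 250 bases before the start of a gene to 50 after it in build GRCh38.p14, were at hand for 5 of the 10 genes, namely COL4A1, COL4A2, COL5A1, COL6A2 and COL6A3. Each CpG is in capitals. The COL4A2 window lies at chr13:110307034-110307333 on the plus strand and the COL6A3 window at chr2:237414115-237414414 on the minus strand.
COL4A2: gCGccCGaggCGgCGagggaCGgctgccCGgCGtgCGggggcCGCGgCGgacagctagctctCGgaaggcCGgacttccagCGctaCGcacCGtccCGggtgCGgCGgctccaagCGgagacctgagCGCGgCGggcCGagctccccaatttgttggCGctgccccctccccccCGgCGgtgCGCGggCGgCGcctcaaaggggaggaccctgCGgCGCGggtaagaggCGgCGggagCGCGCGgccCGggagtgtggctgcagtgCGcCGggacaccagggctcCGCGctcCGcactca
COL6A3: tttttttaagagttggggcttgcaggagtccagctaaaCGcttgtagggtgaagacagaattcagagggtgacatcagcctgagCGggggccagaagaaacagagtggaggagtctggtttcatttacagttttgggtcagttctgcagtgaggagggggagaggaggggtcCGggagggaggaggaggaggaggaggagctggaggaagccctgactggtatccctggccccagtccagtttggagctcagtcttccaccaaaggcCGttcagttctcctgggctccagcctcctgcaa
COL4A1 and COL4A2 lie head to head. The start of COL4A1 (110307157, minus strand) and that of COL4A2 (110307284, plus strand) are 127 bases apart on chromosome 13, and 20 CpG lie between them. Their windows share 226 bases and hold 45 CpG each, a number reached or passed by 3.48% of the 35116 RefSeq windows, whose median is 14. COL6A3 has 4 CpG, and 75.5% of the windows have as many or more. The windows of COL6A2 with 36 CpG and COL5A1 with 36 and 37 (2 annotated starts) fall between them. Of 3 motifs searched on both strands, the COL4A2 window holds 1 GGGCGG at position -65 from the start, and it also holds 1 match to CCAAT at position -105. No TATAAA was found there, and the COL6A3 window holds none of the 3 motifs. The letters GGGCGG occur in 45% of all windows, those of CCAAT in 34.6% and those of TATAAA in 11.5%. Neither the methylation of these windows nor the binding of MBD2 to them was analysed here.

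The MBD2 transcript was higher in the MBD2 arrays. Its brightest probe set read 12.17, 11.72 and 12.50 in MBD2 arrays 1, 2 and 3 and 8.92, 9.03 and 9.68 in control arrays 1, 2 and 3, which is a difference of 2.92 log2 units (standard error 0.28, limma adjusted p = 0.0157). Leaving out arrays in turn, the adjusted p was 0.0828 without MBD2 array 3, 0.0957 without control array 1 and 0.107 without control array 2, and 0.00745 to 0.0461 otherwise. The other 3 MBD2 probe sets differed by -0.08, -0.03 and 0.11.

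The replicates of a group were unequal. Control arrays 1 and 2 differed by more than 2-fold at 26 probe sets, but each differed from control array 3 at 3037 and 3103, and MBD2 arrays 2 and 3 differed at 148, but from MBD2 array 1 at 5552 and 5126. MBD2 array 1 differed from control arrays 1 and 2 at 2940 and 2623, fewer than from the arrays of its own group, and from control array 3 at 5103, and the cause was not tested. The added hybridization controls averaged 10.96, 9.94 and 10.01 in MBD2 arrays 1, 2 and 3 and 11.16, 11.33 and 11.00 in control arrays 1, 2 and 3. The 3′ minus 5′ difference of GAPDH was 1.49 to 1.84 in MBD2 arrays and 1.83 to 2.52 in controls, and that of ACTB was 3.44 to 3.93 in MBD2 arrays and 3.62 to 4.57 in controls. Their part in the results below was not tested. A fit on only the arrays of high hybridization controls keeps MBD2 array 1 alone in its group, so it cannot decide their part. Probe sets of a transcript that was not added read up to 3.67, and a value within 0.5 of that, at most 4.17, is called near background here.

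Of the 33 collagen probe sets, 1 was called higher in MBD2 cells by an adjusted p below 0.05 with a fold of 1.5 or more, and 0 were called lower. Over all 41091 probe sets with 1 symbol these rules called 0.898% higher and 0.978% lower. By the raw p of limma, below 0.05, 8 collagen probe sets were higher and 2 lower, where 8.49% of all probe sets were higher and 8.05% lower. All 3 MBD2 arrays lay above all 3 controls in 8 collagen probe sets, where 10.4% of all probe sets did so, and below them in 3, where 12.3% of all did so. The fold rule of the study's methods, which uses no test and asks for more than 1.5 times the control mean in every MBD2 array, was met by 8 collagen probe sets against 2.99% of all, and its counterpart of under 0.5 times by 0 against 1.4% of all. The median log2 fold change of the 33 was 0.13, against 0.00 over all probe sets. It differed by type, with 2.61 for the 4 type IV probe sets, 0.37 for the 18 fibrillar ones and 0.01 for the 11 of type VI.

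**Figure D1:**
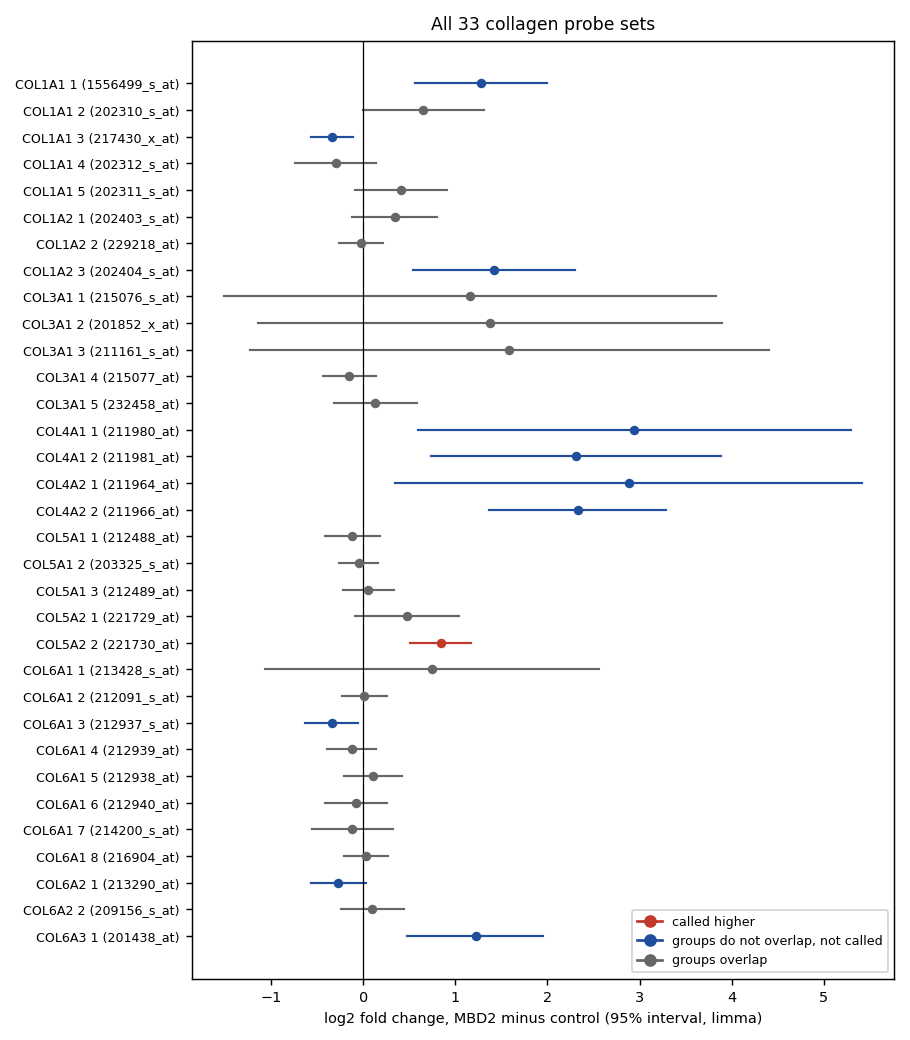
Log2 fold change of each of the 33 collagen probe sets, MBD2 minus control, with its 95% interval from limma on the horizontal axis, and the number of the probe set after each gene symbol. Only the red probe set of COL5A2 (0.84) was called, the 4 type IV probe sets lie furthest to the right at 2.31 to 2.94, and most type VI probe sets sit near 0.

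The type IV chains showed the largest differences, and in all 4 of their probe sets every MBD2 array was above every control array. COL4A1, the alpha 1 chain (chromosome 13, 110148963 to 110307157 in GRCh38.p14), read 11.72, 10.46 and 11.57 with probe set 1 in MBD2 arrays 1, 2 and 3 and 9.44, 9.37 and 6.12 in control arrays 1, 2 and 3. The means were 11.25 ± 0.69 in MBD2 cells and 8.31 ± 1.90 in control cells (SD, n = 3 each), a log2 fold change of 2.94 (95% interval 0.59 to 5.30, adjusted p = 0.215). Control array 3 lay more than 3 log2 units under the other controls. COL4A1 probe set 2 read 8.16, 7.50 and 8.59 in MBD2 arrays and 6.39, 6.57 and 4.36 in controls, so that the log2 fold change was 2.31 with a standard error of 0.64 (adjusted p = 0.161).

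COL4A2, the alpha 2 chain that winds with COL4A1 (chromosome 13, 110307284 to 110513209), also had separate groups. COL4A2 probe set 1 read 10.74, 10.79 and 11.41 in MBD2 arrays and 9.38, 9.28 and 5.62 in control arrays, so that the log2 fold change was 2.89 with a standard error of 1.03 (adjusted p = 0.249). Here too control array 3 was far below the other controls. COL4A2 probe set 2 read 6.17, 6.96 and 7.71 in MBD2 arrays and 4.83, 4.62 and 4.40 in controls, with means of 6.95 ± 0.77 in MBD2 cells and 4.62 ± 0.22 in control cells (SD, n = 3 each). Its log2 fold change of 2.33 (95% interval 1.37 to 3.29) had an adjusted p of 0.0522 and so missed the threshold. In this dim probe set the 3 controls lay within 0.5 log2 units of each other.

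The type IV differences were smaller without control array 3, when they were 1.85 and 1.60 for COL4A1 probe sets 1 and 2 (adjusted p = 0.107 and 0.0948) and 1.65 and 2.22 for COL4A2 probe sets 1 and 2 (adjusted p = 0.0473 and 0.0944), so that COL4A2 probe set 1 was then called. Without MBD2 array 1, COL4A2 probe set 2 was called, with a log2 fold change of 2.72 and an adjusted p of 0.00534. That setting called 3616 of all probe sets higher and 1924 lower. With each array left out in turn, the adjusted p reached 0.553 and 0.488 for COL4A1 probe sets 1 and 2. It reached 0.599 and 0.207 for COL4A2 probe sets 1 and 2. When MBD2 array 1 and control array 3 were dropped together, all 4 were called. Their log2 fold changes were then 1.61, 1.57, 1.77 and 2.61 in the same order (adjusted p of 0.00317, 0.00345, 0.000201 and 6.88e-05). That fit called 6380 of all 41091 probe sets higher and 4094 lower, against 369 and 402 with all 6 arrays. A call there therefore sets a probe set apart less than a call in the main fit. No array that was left out in turn brought a type IV log2 fold change under 1.60.

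**Figure D2:**
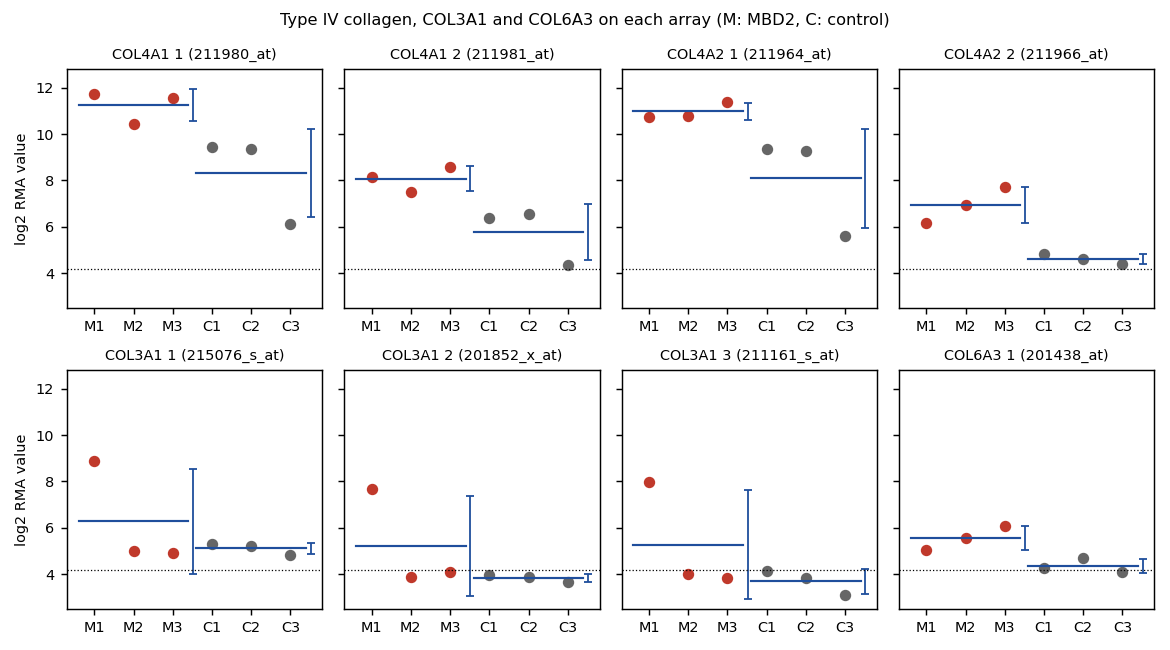
Log2 RMA value (vertical axis) of 8 collagen probe sets, each titled by gene and probe set number, on MBD2 arrays (M1 to M3, red) and control arrays (C1 to C3, grey), with the mean of each group as a blue line, its SD as a blue bar and the background limit of 4.17 as a dotted line. In type IV collagen all MBD2 points lie above all control points and C3 is the lowest, with 6.12 in COL4A1 probe set 1, while in COL3A1 M1 stands alone at 7.69 to 8.90.

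Type I collagen is the main fibre protein of stroma and bone and is built of 2 COL1A1 chains and 1 COL1A2 chain. COL1A1 (chromosome 17, 50184101 to 50201631) read 10.60, 10.61 and 9.75 with probe set 1 in MBD2 arrays and 9.35, 9.07 and 8.69 in controls. The groups did not overlap, and the log2 fold change was 1.28 (standard error 0.29, adjusted p = 0.108). The 5 COL1A1 probe sets disagreed. COL1A1 probe set 3 read 6.58, 6.58 and 6.62 in MBD2 arrays and 6.88, 6.89 and 7.02 in controls, separate in the other direction (log2 fold change -0.34, adjusted p = 0.161). The other 3 differed by 0.65, 0.41 and -0.30 with overlapping groups. The ending _s_at or _x_at in a probe set's name says that its probes can match several transcripts, which holds for all 5 of COL1A1.

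COL1A2 (chromosome 7, 94394895 to 94431227) had 3 probe sets with differing readings. COL1A2 probe set 3 read 4.36, 5.57 and 5.63 in MBD2 arrays and 3.89, 3.58 and 3.84 in controls, so that the log2 fold change was 1.42 with a standard error of 0.36 (adjusted p = 0.132). All 3 controls were near background, which limits how large this difference can read, and MBD2 array 1 was lower than the other MBD2 arrays. Without MBD2 array 1 the probe set was called (log2 fold change 1.83, adjusted p = 0.0036), in a setting that called 3616 of all probe sets higher. With any other array left out it was not called, at adjusted p of 0.186 to 0.411. COL1A2 probe set 1 read 5.92, 6.54 and 6.25 in MBD2 arrays and 6.04, 5.95 and 5.71 in controls, with overlapping groups and a log2 fold change of 0.34 (adjusted p = 0.432), and probe set 2 differed by -0.02.

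COL3A1, the chain of the thin fibres of distensible tissues (chromosome 2, 188974373 to 189012746), was high in a single array. COL3A1 probe set 1 read 8.90, 4.99 and 4.92 in MBD2 arrays 1, 2 and 3 and 5.28, 5.21 and 4.84 in control arrays. Probe set 2 read 7.69, 3.86 and 4.07 in MBD2 arrays and 3.95, 3.88 and 3.65 in controls. Probe set 3 read 7.98, 3.99 and 3.82 in MBD2 arrays and 4.14, 3.82 and 3.08 in controls. MBD2 array 1 was thus 3.79, 3.87 and 4.30 above the control mean, while MBD2 arrays 2 and 3 lay within the range of the controls or just above it. The group log2 fold changes of 1.16, 1.38 and 1.58 (adjusted p = 0.649, 0.562 and 0.552) rest on that array, and without it the log2 fold change of probe set 1 was -0.16 and that of probe set 3 was 0.22. COL3A1 probe set 4 differed by -0.15. Probe set 5 read 4.28, 3.74 and 3.69 in MBD2 arrays and 3.68, 3.77 and 3.88 in controls, so that MBD2 array 1 was again the highest, 0.51 above the control mean, with the other 5 arrays near background. At 67 of all probe sets (0.163%) MBD2 array 1 lay at least 2 log2 units above every other array, and these 3 are among them.

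Type V collagen gave the only called probe set. COL5A2 (chromosome 2, 189031898 to 189441111), the alpha 2 chain, read 5.11, 5.21 and 5.22 with probe set 2 in MBD2 arrays and 4.45, 4.09 and 4.48 in controls. The means were 5.18 ± 0.06 in MBD2 cells and 4.34 ± 0.22 in control cells (SD, n = 3 each), and the log2 fold change of 0.84 (95% interval 0.51 to 1.17, adjusted p = 0.0478) is a fold of 1.79. It is a dim probe set, with 1 control array near background. The call was lost without MBD2 array 2 (adjusted p = 0.173), MBD2 array 3 (0.216), control array 1 (0.169), control array 2 (0.14) or control array 3 (0.0576), and was kept without MBD2 array 1 (0.0217), while the log2 fold change stayed between 0.72 and 0.91. With centring on housekeeping genes the log2 fold change was 0.45 and the call was lost (adjusted p = 0.365). COL5A2 probe set 1 read 7.30, 6.67 and 6.94 in MBD2 arrays and 6.22, 6.42 and 6.84 in controls, overlapping, with a log2 fold change of 0.47 (adjusted p = 0.37). COL5A1, the alpha 1 chain found in most type V molecules, differed by -0.12, -0.05 and 0.05 in its 3 probe sets, whose values lay between 3.65 and 5.16 on all arrays. COL5A3, a type V chain outside the list, was separate downward in both of its probe sets. Its log2 fold changes were -0.86 and -1.01 (limma adjusted p = 0.186 and 0.16).

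Of the type VI chains, COL6A3 alone had MBD2 arrays that all lay above the controls. COL6A3, the long alpha 3 chain (chromosome 2, 237324018 to 237414164), has 1 probe set, which read 5.05, 5.54 and 6.09 in MBD2 arrays and 4.25, 4.69 and 4.09 in controls. The groups did not overlap, and the log2 fold change was 1.22 (standard error 0.30, adjusted p = 0.125). Without MBD2 array 1 it was 1.47 and was called (adjusted p = 0.0198), in a setting that called 3616 of all probe sets higher. With any other array left out COL6A3 was not called, at adjusted p of 0.2 to 0.356 and log2 fold changes down to 0.95. Of the 8 COL6A1 probe sets, probe set 1 read 10.04, 7.79 and 8.08 in MBD2 arrays and 8.56, 8.30 and 6.79 in controls. MBD2 array 1 was the highest and control array 3 the lowest, and the log2 fold change was 0.75 (adjusted p = 0.668). Among the other 4 arrays both MBD2 arrays lay below both controls, and the log2 fold change there was -0.50 (adjusted p = 0.0318, with a fold too small for a call). That setting called 4094 of all probe sets lower. The other 7 COL6A1 probe sets differed by -0.34 to 0.11. Among them probe set 3 read 5.19, 5.12 and 5.20 in MBD2 arrays and 5.66, 5.34 and 5.55 in controls, separate downward with an adjusted p of 0.225. COL6A2, the alpha 2 chain whose gene neighbours COL6A1 on chromosome 21, differed by -0.27 (adjusted p = 0.344, separate downward) and 0.10 in its 2 probe sets.

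Control array 3 was the lowest of the 6 arrays in 16 of the 33 collagen probe sets, and in 16.1% of all probe sets. MBD2 array 1 was the highest in 7 of the 33, where it was so in 15.8% of all probe sets. It was the lowest in 5, where it was so in 24.5% of all. MBD2 arrays 2 and 3 were the highest in 8 each, where they were so in 17.6% and 18.1% of all. Control array 3 lay at least 2 log2 units under every other array in 3 of the 33, and in 104 of all (0.253%). With the brightest probe set of each of the 10 genes, the median difference from the control mean was 1.18, 0.41 and 0.40 in MBD2 arrays 1, 2 and 3 and 0.16, 0.07 and -0.26 in control arrays 1, 2 and 3. Over all 33 probe sets it was 0.14, 0.13 and 0.06 in MBD2 arrays 1, 2 and 3 and 0.08, 0.03 and -0.11 in control arrays 1, 2 and 3. The summed level of these 10 probe sets was 12.38 to 13.05 in MBD2 arrays and 9.88 to 11.39 in control arrays, on the log2 scale. In bulk RNA a larger share of cells that make a transcript and more transcript per cell cannot be told apart.

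The other collagen genes of the array, 33 genes with 79 probe sets, had a median log2 fold change of -0.03, with 1 probe set called higher and 0 lower (limma, with 6 higher and 4 lower by raw p below 0.05, which is 7.59% and 5.06% of them against 8.49% and 8.05% of all probe sets). The called one belonged to COL7A1, the chain of the anchoring fibrils that fix the epithelial basement membrane to the stroma. Its brighter probe set read 7.66, 7.60 and 7.69 in MBD2 arrays and 6.58, 6.84 and 6.49 in controls, so that the log2 fold change was 1.01 with a standard error of 0.12 (adjusted p = 0.0257). The groups were also separate in its other probe set, with a log2 fold change of 0.61 (adjusted p = 0.156). The call was lost without MBD2 array 2 (adjusted p = 0.102), MBD2 array 3 (0.144), control array 1 (0.143) or control array 2 (0.0885), with centring on housekeeping genes (log2 fold change 0.62, adjusted p = 0.299) and with trend and robust fitting in eBayes (0.0531). The remaining type IV chains, COL4A3 to COL4A6, had log2 fold changes of -0.41 to 0.57 in their 15 probe sets. Many of these were near background on all arrays, which limits the differences they can show. The brightest probe sets of COL4A5 and COL4A6 were well above background. That of COL4A5 had means of 10.78 in MBD2 and 10.98 in control cells (log2 fold change -0.20). That of COL4A6 had means of 9.82 and 9.85 (log2 fold change -0.03), while the dimmer COL4A6 probe sets differed by 0.57 and 0.54. Among the 79 probe sets of the other collagens 30 were near background on all arrays, against 2 of the 33.

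Genes that fold, modify, secrete and cross-link collagen were read next, 32 genes with 69 probe sets. A single gene was called higher and 0 lower (limma, with 13 probe sets higher and 1 lower by raw p below 0.05, which is 18.8% and 1.45% of them against 8.49% and 8.05% of all probe sets). The groups were separate upward in 14 and downward in 3, where 10.4% and 12.3% of all probe sets were so. The called gene was SEC23A, a coat protein of the vesicles that carry procollagen out of the endoplasmic reticulum. Its brighter probe set read 11.26, 11.11 and 11.45 in MBD2 arrays and 10.14, 10.49 and 10.09 in controls, so that the log2 fold change was 1.03 with a standard error of 0.16 (adjusted p = 0.0425). That adjusted p was 0.0215 without MBD2 array 1, and the call was lost without any of the other arrays, at 0.0707 without control array 3, 0.114 without MBD2 array 2 or control array 2, 0.182 without control array 1 and 0.186 without MBD2 array 3. It was also lost with housekeeping centring (log2 fold change 0.65, adjusted p = 0.295) and with trend and robust fitting (0.0887). SERPINH1, the collagen chaperone, read 11.71, 10.46 and 10.38 in MBD2 arrays and 11.64, 11.61 and 9.79 in controls (log2 fold change -0.16, adjusted p = 0.928). PLOD2, a lysyl hydroxylase, gave 1.54 and 0.49 in its 2 probe sets (adjusted p = 0.374 and 0.557). P4HA2, a prolyl hydroxylase subunit, gave 0.93 and 0.41 in its 2 brighter probe sets (adjusted p = 0.297 and 0.72). LOX, a lysyl oxidase that starts the cross-links, gave 0.75, 0.27 and -0.02. In LOX as in SERPINH1, PLOD2 and P4HA2, control array 3 was the lowest array of the brightest probe set.

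Receptors and partners of collagen showed 1 call. Of 25 probe sets of 9 collagen receptors, 0 were called in either direction (limma, with 1 higher, 0 lower by raw p below 0.05, which is 4% and 0% of them against 8.49% and 8.05% of all probe sets). DDR2, a receptor kinase for fibrillar collagen, was separate upward in 2 of its 4 probe sets, with log2 fold changes of 0.91 (adjusted p = 0.0871) and 0.83 (adjusted p = 0.307), and ITGA2, the collagen-binding integrin chain of epithelium, differed by 0.06 and 0.42. The probe sets of the receptor DDR1 carry several symbols and were not used here. Of 12 matrix partners with 37 probe sets, 1 probe set was called higher and 0 lower (limma, with 3 higher and 2 lower by raw p below 0.05, which is 8.11% and 5.41% of them against 8.49% and 8.05% of all probe sets). It was the dimmer of both probe sets of SPARC, a collagen-binding matrix protein, which read 9.58, 9.16 and 9.86 in MBD2 arrays and 6.91, 6.65 and 4.98 in controls (log2 fold change 3.35, standard error 0.53, adjusted p = 0.0458). The brighter SPARC probe set was also separate upward, with a log2 fold change of 1.83 (adjusted p = 0.0975). The call on the dimmer one was lost without MBD2 array 2 (adjusted p = 0.136), MBD2 array 3 (0.206), control array 1 (0.132) or control array 2 (0.161), and without control array 3 its log2 fold change was 2.75 (adjusted p = 0.0219). FN1, fibronectin, read 14.13, 12.82 and 13.75 in MBD2 arrays and 12.94, 12.93 and 8.40 in controls with the brightest of its 7 probe sets (log2 fold change 2.14, adjusted p = 0.468), with control array 3 far below the others as in COL4A1. NID1, which ties type IV collagen to laminin, differed by -0.36, -0.11 and -0.18.

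Markers of cells that could bring collagen transcripts were read on the same arrays. Of 9 fibroblast markers with 19 probe sets, 1 was called higher and 0 lower (limma, with 2 higher and 1 lower by raw p below 0.05, which is 10.5% and 5.26% of them against 8.49% and 8.05% of all probe sets). That was TWIST2, a mesenchymal transcription factor, with 7.71, 8.34 and 7.89 in MBD2 arrays and 6.39, 6.55 and 6.49 in controls (brighter probe set, log2 fold change 1.5, standard error 0.18, adjusted p = 0.0243), and the call was lost without MBD2 array 2 (adjusted p = 0.0558), MBD2 array 3 (0.119), control array 1 (0.135) or control array 2 (0.125), and with housekeeping centring (log2 fold change 1.11, adjusted p = 0.0564). The summed level of the fibroblast list was 10.39 to 12.06 in MBD2 arrays and 10.02 to 11.16 in controls on the log2 scale, and MEOX2 was near background on all arrays. FAP, the brightest of these genes, read 11.77, 8.95 and 9.42 in MBD2 arrays and 10.66, 10.64 and 7.50 in controls (adjusted p = 0.884), highest in MBD2 array 1 and lowest in control array 3. Of 8 endothelial markers with 15 probe sets 0 were called (limma, with 1 higher and 1 lower by raw p below 0.05, which is 6.67% each). The groups were separate upward in 1 probe set and downward in 2, where 10.4% and 12.3% of all probe sets were so. Their summed level was 7.98 to 8.0 in MBD2 arrays and 8.0 to 8.12 in controls, and CDH5, KDR and TIE1 were near background. Of 4 HEK293 markers 0 were called (limma, 0 by raw p below 0.05), with summed levels of 6.10 to 6.21 in MBD2 arrays and 6.08 to 6.17 in controls, and NEFL, NEFM and LIN28B were near background. The basal epithelial markers of MCF-10A were present, with a summed level of 14.86 to 15.16 in MBD2 arrays and 15.00 to 15.72 in controls. In 7 of their 18 probe sets all MBD2 arrays lay below all controls, and in 2 they lay above them. Of all probe sets 12.3% and 10.4% did so. In the epithelial list 0 were called (limma, with 2 higher and 7 lower by raw p below 0.05, which is 11.1% and 38.9% against 8.49% and 8.05% of all). The part of TWIST2 and the other fibroblast markers in the collagen values was not tested.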

How the data were processed

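The authors deposited log2 values of 54675 probe sets, normalized by RMA with the affy package per the labels, versions not given in the sources used here. RMA compresses differences at low signal. Probe sets were named through the platform annotation, in which 41091 had 1 symbol, 1801 several and 11721 none, and 62 controls were left out. The values ran from 2.57 to 14.74. Groups were compared with limma 3.58.1 in R 4.3.3 (group as the only term, eBayes, 1.95 prior degrees of freedom), with Benjamini-Hochberg adjustment over all 41091 probe sets and no filter on dim ones. A probe set was called where its adjusted p was below 0.05 with a fold of 1.5 or more. The methods state no test for the arrays, only a fold rule. The fit was tested on simulated data. The collagen genes and all lists were chosen with earlier results of these data known. Named by rule were the 10 chains, MBD2, up to 5 called genes per list, other called collagens, P4HA2, PLOD2, SERPINH1, LOX, ITGA2, DDR2, NID1, SPARC and FN1, and other names, such as FAP, came after their values were seen. Promoter windows and gene positions are from RefSeq. The number of arrays, 6, limits the precision. The housekeeping list, 19 genes matched of 23, served for centring, and 0 of its 56 probe sets were called (limma, with 12 higher and 5 lower by raw p below 0.05, which is 21.4% and 8.93% of them against 8.49% and 8.05% of all probe sets). COLGALT2, DDR1, KRT6A, KRT17 and TP63 had no probe set with 1 symbol.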

Additional observations from a re-analysis of the deposited data

How the results depend on the processing

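The count of 1 collagen probe set called higher was 0 with 1 probe set per gene, with the mean of a gene's probe sets, with a replicate block, with near-identical arrays averaged, with only the arrays of high hybridization controls, and at a fold of at least 2. It was 2 with a further quantile normalization or with eBayes with trend and robust fitting, 8 under the methods' fold rule, 8 without both control array 3 and MBD2 array 1, and 0 to 4 with each array left out (4 without MBD2 array 1). Among probe sets with a mean of at least 5, the single call was COL4A2 probe set 2 (limma adjusted p = 0.0402). It passed this filter through its MBD2 mean of 6.95, with a control mean of 4.62. COL5A2 probe set 2, with means of 5.18 in MBD2 and 4.34 in control cells, was removed by the filter and not tested there. After centring on housekeeping genes the single call was again COL4A2 probe set 2 (adjusted p = 0.00371). COL5A2 probe set 2 then had a log2 fold change of 0.45 (adjusted p = 0.365). The 8 calls without MBD2 array 1 and control array 3 came from a fit that called 6380 of all 41091 probe sets higher. No setting called a collagen probe set lower. The median of 0.13 was 0.95 with 1 probe set per gene, 0.62 with gene means, 0.47 with a mean of at least 5, 0.04 with both arrays left out, 0.08 to 0.24 with each array left out, and -0.26 after centring, which moved the median of all probe sets to -0.39. Collagen processing genes called higher, 1, were 0 under centring, trend and robust fitting, the block, averaging and high hybridization controls, 7 without both, 4 under the fold rule and 0 to 3 with each array left out. Those called lower, 0, were 7 with both left out and 0 to 2 with each left out. The sign turned for COL1A2 probe set 1 under centring (-0.05), for COL3A1 probe set 1 without MBD2 array 1 (-0.16, with 1.83 as the highest value without 1 array) and with both arrays left out (-0.29), and then also for COL3A1 probe set 3 (-0.08) and COL6A1 probe set 1 (-0.50).

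Whether replicate numbers pair the samples could not be told from the values. The deviations of same-numbered arrays from their group means correlated at 0.21, -0.33 and 0.28 for numbers 1, 2 and 3. Such deviations sum to 0 within a group, and MBD2 arrays 2 and 3, like control arrays 1 and 2, were near identical. The signs of these correlations therefore depend on each other and cannot decide the pairing. A replicate block left 1 probe set called higher and 23 lower over the array, against 369 and 402 without it. Over all probe sets, centring gave 218 higher and 828 lower (79.2% of calls lower, against 52.1%). Leaving out MBD2 array 1 gave 3616 and 1924, MBD2 array 2 32 and 67, MBD2 array 3 10 and 37, control array 1 3 and 20, control array 2 2 and 18, and the pair of control array 3 and MBD2 array 1 6380 and 4094. Averaging leaves 2 against 2, and the arrays of high hybridization controls are MBD2 array 1 against 3 controls, so that the lone array is assumed to vary like them. Both gave 0 in each direction, and counts of 0 from so few arrays say little. The block also ended the calls on MBD2 (adjusted p = 0.0511), TWIST2 (0.0869), COL7A1 (0.12), SPARC (0.131), COL5A2 probe set 2 (0.14) and SEC23A (0.145). The cause was not tested. The values near background of COL1A2 probe set 3 and most COL3A1 arrays limit what these probe sets can show.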
